A study of Mus musculus with 7 samples.

Results

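The neuropeptide genes described here are Nts, which encodes the precursor of neurotensin and neuromedin N, and Penk, which encodes proenkephalin. With them are 4 genes of peptide processing: Pcsk1n, Qpct, Cpe and Scg5. They are 6 of the 12394 named genes on the array, and 7 probe sets were annotated to them, 2 of these to Cpe. The members were chosen by name with earlier results of these arrays in view, so their levels and differences are a description and carry no test. The expression of mouse embryonic fibroblasts was measured on 7 Affymetrix arrays, with 1 array per group and no replicate in any group. Cells lacking p53 and the maintenance DNA methyltransferase Dnmt1 (p53-/- Dnmt1-/-, here p53-Dnmt1-null) were measured at 0, 24 and 48 h of TSA, and 2 weeks after TSA removal. Cells lacking p53 alone (p53-/-, here p53-null) were measured at the same 3 times. TSA, trichostatin A, inhibits histone deacetylases, and every array comes from cells without p53. The labels name no separate cultures, clones or animals, so genotype and culture cannot be told apart. Neither the TSA dose nor the length of exposure of the after-removal cells is stated in the labels.

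Neuropeptides are made as larger precursors that are cut inside the secretory pathway. Prohormone convertases cut at pairs of basic residues, carboxypeptidase E (Cpe) then trims those residues from the new carboxyl end, and glutaminyl cyclase (Qpct) closes an amino-terminal glutamine into pyroglutamate, as on neurotensin. Pcsk1n encodes proSAAS, an inhibitor of convertase 1, and Scg5 encodes 7B2, a chaperone and inhibitor of convertase 2. Enkephalins are the short opioid peptides cut from proenkephalin. Neurotensin is best known from the brain and the endocrine cells of the gut, while Penk RNA is also found in some mesenchymal cells.

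The arrays had been scaled to a common trimmed mean, and their median signals lay between 41.9 and 48.8. Signals are linear intensities, and a probe set's signal is not set against that of another. Differences are on the scale log2(signal + 11.4), which understates the change of dim genes, and a feature counted as measured if 1 or more arrays read it above 45.6, the median of all signals pooled. All 11 listed fibroblast markers had a probe set, with a summed signal of 13158.6 to 16671.3 on the p53-Dnmt1-null arrays at 0 to 48 h of TSA and 9255.4 after removal, against 29300.8 to 34120.3 on the p53-null arrays. The 9 mesothelial and epithelial markers summed to 14180.4 to 18992.7 on the p53-Dnmt1-null arrays at those times and 10868.1 after removal, against 150.4 to 420.1 on the p53-null arrays. Of 9 neuroendocrine markers 8 had a probe set, and their summed signal was 152.3 to 216.6 in p53-Dnmt1-null cells and 113.7 to 128.3 in p53-null cells. Chgb and Snap25, the dimmest, were at 0.7 to 8.5 and 0.3 to 6.7 over the 7 arrays, and Chga did not exceed 44.2. Eno2, the brightest, read 45.9, 70.2 and 68.8 at 0, 24 and 48 h in p53-Dnmt1-null cells and 101.0 after removal, against 31.6, 61.2 and 52.8 in p53-null cells. Neurod1 exceeded 45.6 on the untreated p53-Dnmt1-null array alone, at 47.8. The 18S ribosomal RNA control at its 3' end read 688.1, 2549.1 and 1292.1 on the p53-Dnmt1-null arrays at 0, 24 and 48 h and 93.6 after removal. On the p53-null arrays it read 194.0, 337.5 and 228.7. Over these 3 times it was highest at 24 h and lowest untreated in both genotypes, the order given below for Nts and Pcsk1n. Its part in the TSA differences was not tested. The ratio of 3' to 5' signal was 0.834 to 0.906 for Gapdh and 1.06 to 1.23 for Actb.

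Promoter windows from RefSeq (GRCm38.p6), from 250 bases before to 50 after the gene's start, were matched for 3 of the 6 members. The windows of Nts and Pcsk1n are shown because these are the members whose signal was higher on all 4 TSA arrays than in untreated cells of the same genotype by at least 0.91 on the log2 scale. Each is written 5′ to 3′ on the gene's strand, with matches to the searched motifs in capitals. The Nts window is chr10:102490369-102490668, minus strand, and the Pcsk1n window is chrX:7919572-7919871, plus strand.
Nts: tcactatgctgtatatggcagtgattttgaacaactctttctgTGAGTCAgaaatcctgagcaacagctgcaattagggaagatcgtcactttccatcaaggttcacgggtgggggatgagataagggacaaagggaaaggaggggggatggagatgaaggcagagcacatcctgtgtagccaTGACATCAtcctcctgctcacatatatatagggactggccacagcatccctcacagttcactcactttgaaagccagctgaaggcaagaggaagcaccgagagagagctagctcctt
Pcsk1n: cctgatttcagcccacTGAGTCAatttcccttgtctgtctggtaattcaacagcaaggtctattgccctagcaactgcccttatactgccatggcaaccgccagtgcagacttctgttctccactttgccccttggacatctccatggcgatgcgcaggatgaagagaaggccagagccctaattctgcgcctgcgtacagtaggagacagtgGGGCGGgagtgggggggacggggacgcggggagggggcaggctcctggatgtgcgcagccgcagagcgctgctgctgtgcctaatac

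The motifs were chosen after the windows had been read and were searched on both strands. The AP-1 motif TGACTCA occurred once in each window, as TGAGTCA starting 207 bases before the start of Nts and 234 bases before that of Pcsk1n, and 5.20% of 32851 windows of that length held it. The cyclic AMP response element pattern TGACNTCA occurred in the Nts window as TGACATCA, 67 bases before the start, and 8.83% of all windows held it. The GC box GGGCGG occurred in the Pcsk1n window 37 bases before the start, and 35.7% of all windows held it. None of these matches overlapped another. The Nts window held 3 CpG dinucleotides and the Pcsk1n window 12, with a median of 7 over all windows. The Scg5 window held 9 CpG dinucleotides and 1 GC box. A match describes the letters of the window and not the binding of a factor.

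Nts was below the array's middle signal in untreated cells of both genotypes and bright on every TSA array. In p53-Dnmt1-null cells its signal was 18.2 untreated, 331.7 at 24 h of TSA and 218.7 at 48 h. In p53-null cells the signals at the same times were 24.9, 708.7 and 327.1. The 4 TSA arrays did not overlap the 3 others, and in both genotypes the 24 h array was the higher of the pair. The TSA differences were 3.54 at 24 h and 2.96 at 48 h in p53-Dnmt1-null cells, and 4.31 and 3.22 in p53-null cells. As folds on the same scale these are 11.6 and 7.77 in p53-Dnmt1-null cells and 19.8 and 9.33 in p53-null cells. Averaged over both times the Nts difference ranked 6 of 9390 measured features in p53-Dnmt1-null cells and 1 of 9390 in p53-null cells.

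Nts was near its untreated signal on the array taken 2 weeks after TSA removal. Whether it had been higher in those cells during their exposure is not shown. The after-removal array gave a signal of 22.3, against 18.2 in untreated p53-Dnmt1-null cells, a difference of 0.19 from 1 array each. Both values lie below the pooled median. Between genotypes Nts was lower in p53-Dnmt1-null cells at all 3 times, by a mean of -0.64 ± 0.39 (SD over 3 times).

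Pcsk1n followed the same course at a much dimmer level. Its signal in p53-Dnmt1-null cells was 13.4 untreated, 47.0 at 24 h and 35.3 at 48 h, with 7.1 after removal. In p53-null cells it was 6.2, 60.9 and 52.9. The 4 TSA arrays again lay above the 3 others, but only 3 of them exceeded the pooled median, and the gene counted as measured only through TSA arrays. The TSA differences were 1.24 and 0.91 at 24 h and 48 h in p53-Dnmt1-null cells, and 2.04 and 1.87 in p53-null cells. The after-removal signal differed from the untreated one by -0.42.

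Qpct separated the genotypes under TSA. In p53-Dnmt1-null cells its signal stayed dim, at 2.1 untreated, 9.9 at 24 h, 2.7 at 48 h and 4.0 after removal. In p53-null cells it was 11.6 untreated, 160.8 at 24 h and 147.8 at 48 h. The TSA arrays of the p53-null cells were the only 2 arrays on which Qpct exceeded the pooled median. The TSA differences were 0.66 and 0.06 in p53-Dnmt1-null cells, where all signals are too dim to be ordered, and 2.90 and 2.79 in p53-null cells. The mean over both times ranked 2 of 9390 features in p53-null cells and 1930 in p53-Dnmt1-null cells. The genotype difference was -0.77 in untreated cells, -3.02 at 24 h and -3.50 at 48 h.

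**Figure D1:**
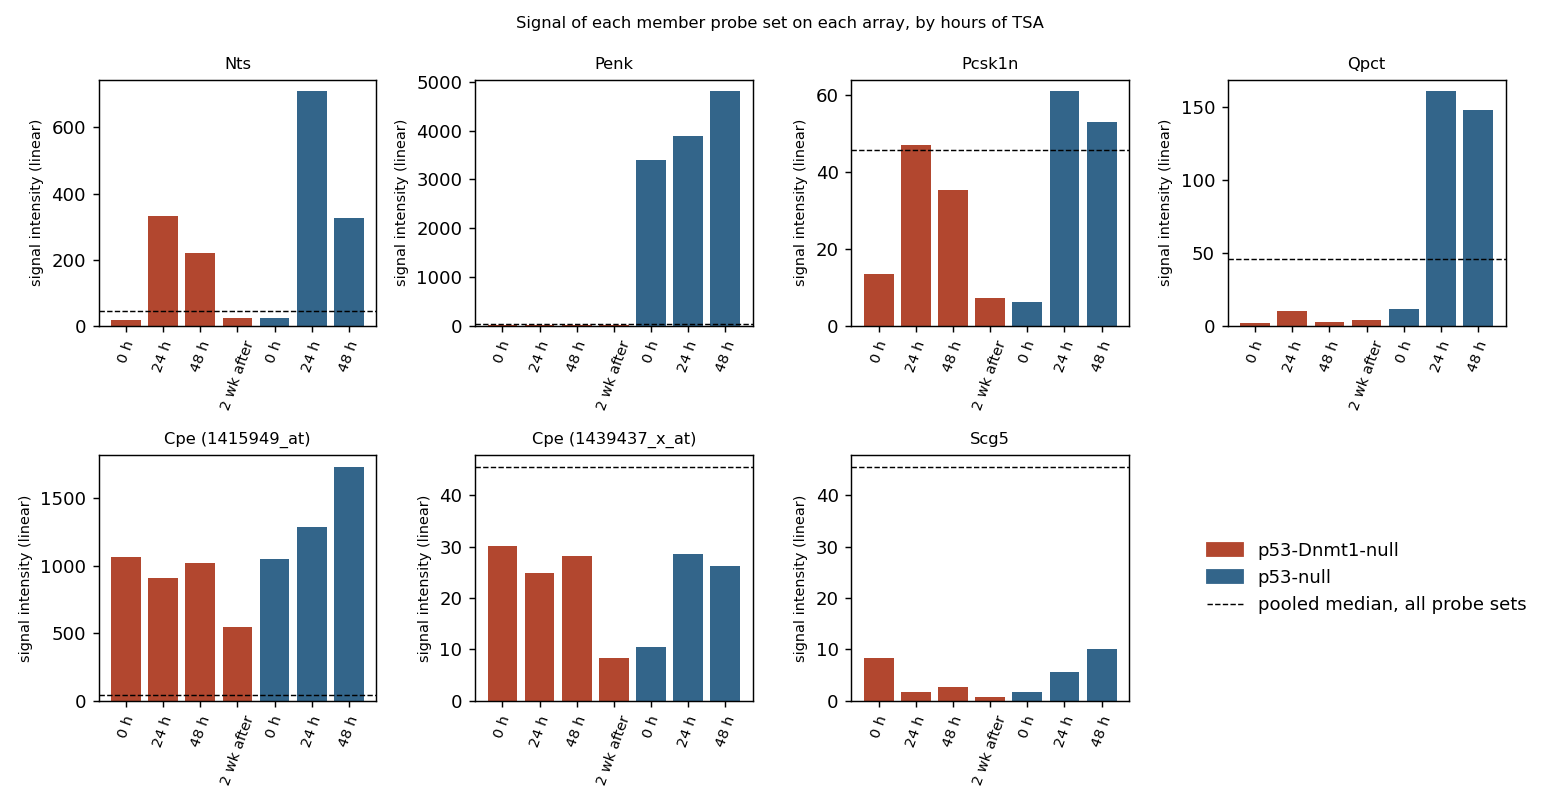
Signal intensity (linear, from 0) of the 7 probe sets on each of the 7 arrays, by hours of TSA, with p53-Dnmt1-null arrays in red and p53-null arrays in blue; each bar is 1 array. The dashed line is the pooled median of 45.6. Nts and Pcsk1n stand high on the 4 TSA arrays, Qpct on the 2 TSA arrays of p53-null cells, and Penk on the 3 p53-null arrays.

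Penk differed between the genotypes and little with TSA. Its signal in p53-Dnmt1-null cells was 15.8 untreated, 22.2 at 24 h, 10.5 at 48 h and 16.1 after removal. In p53-null cells it was 3408.3, 3899.8 and 4803.2. The genotypes were far apart at every time, and all 4 p53-Dnmt1-null signals lay below the pooled median. The genotype difference was -6.97 untreated, -6.86 at 24 h and -7.78 at 48 h, with a mean of -7.21 ± 0.50 (SD over 3 times). That mean was the lowest of 9390 features and is a 148-fold higher level in p53-null cells on this scale. Its size depends on the offset, since Penk was dim in p53-Dnmt1-null cells: the mean was -6.04 with the offset at the pooled median and -7.92 with an offset of 1.

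TSA moved Penk little beside that. The TSA differences were 0.30 at 24 h and -0.31 at 48 h in p53-Dnmt1-null cells, and 0.19 and 0.49 in p53-null cells. The genotype difference of Penk lay in the same direction as the summed fibroblast markers given above, and opposite to the mesothelial and epithelial ones. The fibroblast sum rests on its brightest genes, and Dcn went against it. Dcn read 1097.9, 621.2 and 1611.5 in p53-Dnmt1-null cells at 0, 24 and 48 h, against 73.8, 234.2 and 551.8 in p53-null cells. Untreated Vim differed little, at 5044.9 against 5662.4. The part of cell type in it was not tested, nor was that of the 18S control, which was higher in p53-Dnmt1-null cells up to 48 h.

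Cpe was bright on every array and was the only member above the pooled median on all 7. In p53-Dnmt1-null cells its main probe set read 1067.2 untreated, 909.1 at 24 h, 1021.8 at 48 h and 546.2 after removal. In p53-null cells it read 1048.9, 1287.8 and 1737.2. Untreated signals of the genotypes differed by 0.02, and the genotype difference was -0.50 at 24 h and -0.76 at 48 h. The TSA differences were -0.23 and -0.06 in p53-Dnmt1-null cells and 0.29 and 0.72 in p53-null cells. After removal the signal was 1.93-fold lower than in untreated p53-Dnmt1-null cells, a difference of -0.95, where the median of all features was -0.13.

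The other Cpe probe set was below the pooled median on every array. It read 30.1, 24.9, 28.2 and 8.3 in p53-Dnmt1-null cells untreated, at 24 h, at 48 h and after removal, and 10.5, 28.5 and 26.3 in p53-null cells. Both probe sets were lowest among the p53-Dnmt1-null arrays after removal. They disagreed on the untreated genotypes, which differed by 0.92 in the dim probe set.

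Scg5 was not measured above the filter in any group. Its signal was 8.3, 1.7 and 2.7 in p53-Dnmt1-null cells at 0, 24 and 48 h and 0.8 after removal, and 1.7, 5.6 and 10.0 in p53-null cells. Such dim signals have no order.

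**Figure D2:**
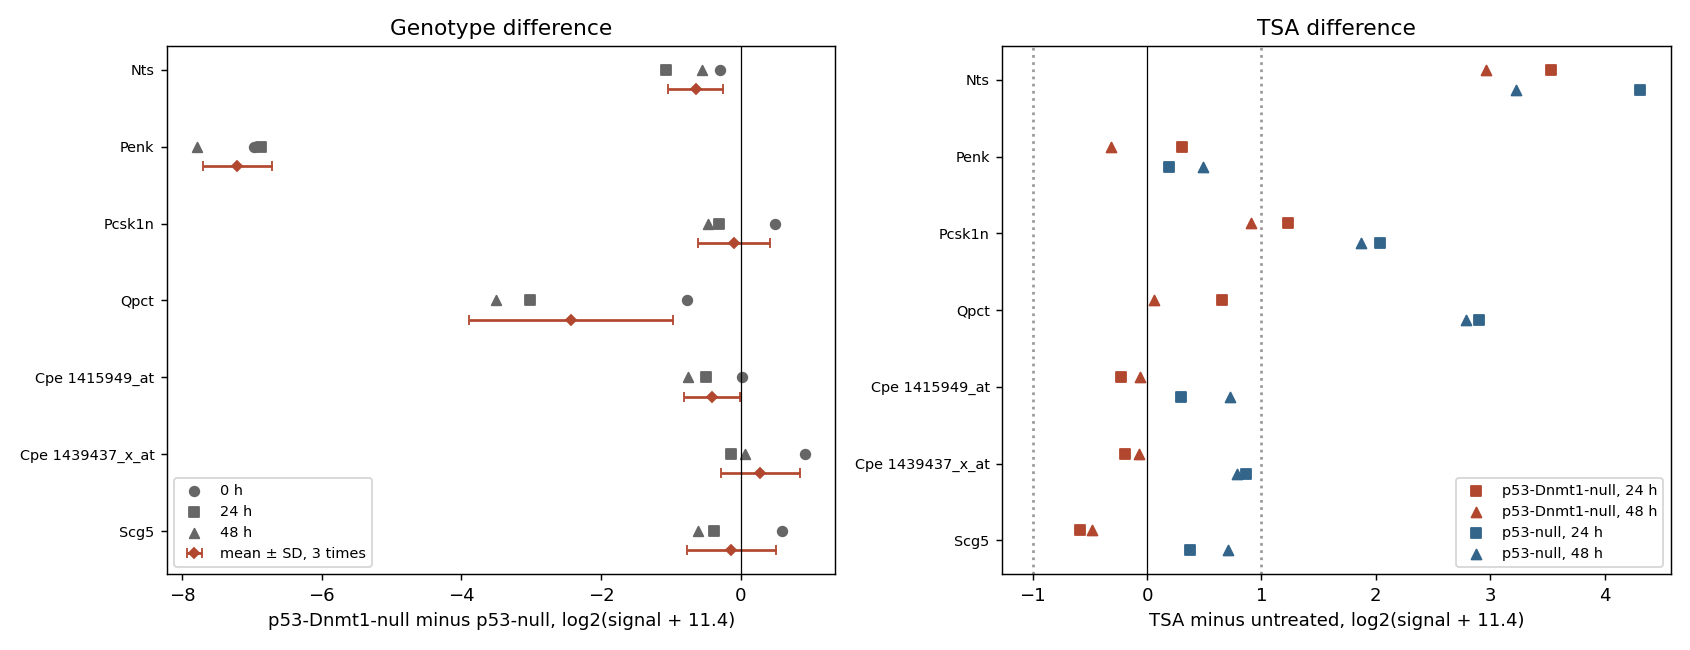
Differences of each member probe set on the log2(signal + 11.4) scale. Left, p53-Dnmt1-null minus p53-null at 0, 24 and 48 h (grey) with the mean ± SD over 3 times (red); right, TSA minus untreated in p53-Dnmt1-null (red) and p53-null cells (blue), with dotted lines at 2-fold. Penk stands apart at -7.21 on the left, and Nts, Qpct and Pcsk1n on the right.

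Under a size rule, at least 2-fold one way at both times of TSA, 1 of the 5 measured members was higher in p53-Dnmt1-null cells, Nts, where 1.87% of all features were. In p53-null cells 3 were higher, Nts, Qpct and Pcsk1n, where 1.54% of all features were. None was lower by that rule in either genotype. By genotype, 1 of the 5, Penk, was at least 2-fold lower at all 3 times, against 5.99% of all features, and none was higher, against 5.11%. After removal none was at least 2-fold higher or lower than in untreated cells, where 4.66% and 9.68% of all features were. Since the members were chosen on these contrasts, nothing is read from their counts. Of the 6 genes, 1 exceeded the pooled median on the untreated p53-Dnmt1-null array, and 3 and 2 at 24 h and 48 h of TSA. On the p53-null arrays 2, 5 and 5 did so at the same times. The median signals of the arrays over all probe sets were 41.9 to 48.8, near that pooled median. From these counts too nothing is read.

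The summed signal of the neuron markers was higher on the TSA arrays of both genotypes. All 10 had a probe set, and on the p53-Dnmt1-null arrays they summed to 360.9 untreated, 1442.9 at 24 h, 967.8 at 48 h and 346.1 after removal. On the p53-null arrays they summed to 445.9, 2369.6 and 1573.4. Uchl1, a ubiquitin hydrolase of neurons, carried most of the sum on the TSA arrays of p53-Dnmt1-null cells, at 1009.3 and 702.9. On those of p53-null cells it read 855.1 and 268.9. Stmn2, a regulator of neuronal microtubules, read 13.8, 134.1 and 49.8 at 0, 24 and 48 h in p53-Dnmt1-null cells. In p53-null cells Stmn2 read 192.7, 1251.1 and 1092.0, the largest part of the sum with TSA. Not every marker was higher on the TSA arrays. Tubb3, a neuronal tubulin, read 68.6, 149.0 and 53.7 at 0, 24 and 48 h in p53-Dnmt1-null cells and 144.3 after removal, against 46.2, 82.8 and 41.3 in p53-null cells. Syn1 was higher on all 4 TSA arrays, with 67.1, 96.2 and 105.2 in p53-Dnmt1-null cells and 37.5, 111.1 and 106.9 in p53-null cells. Map2 was too, but stayed below the pooled median. Elavl4 read 10.3, 9.1 and 6.3 in p53-Dnmt1-null cells and 13.3, 9.6 and 9.6 in p53-null cells, too dim to be ordered. Nefl, Nefm and Elavl3 did not exceed 12.1, and Rbfox3, a nuclear marker of mature neurons, was at 0.6 to 6.6 throughout. Each array measures the RNA of many cells together, so fewer cells of a type and less RNA per cell cannot be told apart. The part of other cells in the TSA differences was not tested.

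Some genes ran nearly parallel to a member over the 7 arrays, out of 8293 named genes measured. These correlations (Pearson r over 7 arrays, log2 scale) share the same arrays and genotypes and are a description. Penk was most alike to Masp1, a protease of the lectin complement pathway (r = 0.999), to Hoxd13, a posterior homeobox gene (r = 0.999), and to Adm (r = 0.998). Adm encodes adrenomedullin, itself a vasodilator peptide made from a precursor, and had signals of 2.2, 9.5 and 1.4 on the p53-Dnmt1-null arrays at 0, 24 and 48 h and 2.7 after removal, against 304.0, 331.4 and 380.4 on the p53-null arrays. Hoxd13 likewise read 1.5 to 3.9 on the p53-Dnmt1-null arrays and 185.9 to 217.4 on the p53-null arrays.

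Nts was most alike to Il1rn, the interleukin 1 receptor antagonist, to Snapin, a SNARE-associated protein, and to Rab11a, a GTPase of recycling endosomes, with r between 0.961 and 0.964. Those genes moved over a narrower range than Nts. Rab11a, for example, read 433.2 untreated and 774.0 and 662.0 with TSA in p53-Dnmt1-null cells, and 486.5, 756.4 and 633.0 in p53-null cells. Pcsk1n was most alike to Icam5, an adhesion molecule of neurons (r = 0.995), followed by Ttc1 and Hacd4 (r = 0.968 and 0.964). Icam5 read 17.4, 39.3 and 28.6 on the p53-Dnmt1-null arrays at 0, 24 and 48 h, against 9.4, 49.7 and 44.3 on the p53-null arrays.

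Qpct was most alike to Kifap3, a kinesin-associated protein, to Zcchc18 and to Eif4e3, a cap-binding protein, with r between 0.987 and 0.991. Kifap3 was measured on every array, with 138.7, 176.3 and 146.5 on the p53-Dnmt1-null arrays at 0, 24 and 48 h, against 250.7, 705.5 and 702.4 on the p53-null arrays. Its difference with TSA in p53-null cells therefore does not start from a dim untreated value as that of Qpct does. Cpe was most alike to Ulk2, Zfp276 and Ifit1, with r between 0.987 and 0.990.

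The rest of the pathway was taken from 5 lists of 111 genes, of which 90 had a probe set and 34 were measured. Genotypes were compared with limma on the 6 arrays at 0, 24 and 48 h, with time as a factor and Benjamini-Hochberg adjustment over all 9390 features. These p-values rest on the spread of single arrays, with none from separate cultures. Of the 34 genes, 5 were higher and 4 lower in p53-Dnmt1-null cells and 25 did not pass, where 19.4% of all features were higher and 19.4% lower. The median difference was -0.03 over the 34 genes and 0.04 over all features. Both counts are smaller shares than those of all features.

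Most other neuropeptide precursors on the array did not pass the filter. Of 49 listed, 35 had a probe set and 6 were measured, with 1 higher, 0 lower and 5 not passing, and a median genotype difference of 0.53. Over all features 19.4% were called in each direction. Calcb and Cort, like Nmb, passed the filter only through p53-Dnmt1-null arrays. The filter itself thus favours a median above 0, and no direction is read from it. Nmb, the precursor of neuromedin B, read 66.2, 69.2 and 42.6 in p53-Dnmt1-null cells at 0, 24 and 48 h and 67.4 after removal, against 25.6, 31.6 and 33.3 in p53-null cells. It was higher by 0.75 ± 0.25 (SE, limma adjusted p = 0.0447), and it passed the filter only through p53-Dnmt1-null arrays. The call was lost without the 24 h pair of arrays (limma adjusted p = 0.116).

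The processing enzymes differed by genotype in 2 of 11 measured genes, with 1 higher and 1 lower. That compares with 19.4% of all features called in each direction. Pam, which amidates the carboxyl end of peptides, read 49.0, 50.4 and 42.9 in p53-Dnmt1-null cells at 0, 24 and 48 h and 19.8 after removal, against 91.2, 90.8 and 111.7 in p53-null cells. It was lower by -0.89 ± 0.20 (SE, limma adjusted p = 0.00916), and without the 48 h pair the call was lost (limma adjusted p = 0.0872). Cpz, a carboxypeptidase of the extracellular matrix related to Cpe, read 32.5, 59.0 and 136.7 and then 3.0 after removal, against 1.6 to 2.2 in p53-null cells. It was higher by 2.54 ± 0.39 (SE, limma adjusted p = 0.00146), and it too was measured only through p53-Dnmt1-null arrays. The difference was 1.27 with the offset at the pooled median and 4.51 with an offset of 1. Pcsk1, the convertase that proSAAS inhibits, was below the filter, at 3.3 to 16.7 in p53-Dnmt1-null cells and 11.0 to 23.8 in p53-null cells, and Pcsk2 had no named probe set. The list's median was -0.15.

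Of 11 measured peptide-degrading enzymes 2 were higher and 3 lower, with a median of -0.22, where 19.4% of all features were called in each direction. Ide, the insulin-degrading enzyme, read 581.3, 355.3 and 406.5 in p53-Dnmt1-null cells and 1018.8 after removal, against 193.3, 141.5 and 137.9 in p53-null cells. Its 4 probe sets all read higher in that genotype at each of the 3 times. It differed by 1.43 ± 0.17 (SE, limma adjusted p = 0.000403), and Dpp3, a cytosolic peptidase that cleaves enkephalins among others, by 1.00 ± 0.16. Mme, neprilysin, the membrane enzyme that degrades enkephalins, read 10.8, 11.5 and 7.0 and 32.5 after removal, against 53.4, 47.9 and 225.3 in p53-null cells, lower by -2.20 ± 0.44 (SE, limma adjusted p = 0.0050). It was measured only through p53-null arrays, and its difference was -1.46 without the 48 h pair, -1.51 averaged over its probe sets, and -1.30 and -3.00 with the offset at the pooled median and at 1. The lysosomal peptidase Dpp7 was lower by -1.06 ± 0.19. Ece1, the endothelin-converting enzyme, was lower by -0.85 ± 0.21. Averaged over its probe sets Ece1 did not pass (limma adjusted p = 0.0736), and its other probe set read 135.0 against 97.1 at 24 h, the opposite direction.

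Among receptors, 1 of 4 measured genes was called by genotype, where 19.4% of all features were called in each direction. The list median was 0.27. Sorl1, a sorting receptor of the same family as sortilin, was higher by 0.75 ± 0.21 (SE, limma adjusted p = 0.0225), and without the 24 h pair or the 48 h pair it did not pass (limma adjusted p = 0.0966 and 0.0565). Sort1, sortilin, which binds neurotensin, read 176.7, 197.1 and 265.5 in p53-Dnmt1-null cells and 112.1 after removal, against 67.6, 199.1 and 136.6 in p53-null cells. Its genotype difference was 0.71 ± 0.25 (SE, limma adjusted p = 0.0525). It passed without the 24 h pair (1.08, limma adjusted p = 0.00162), a fit with 1 residual degree of freedom, and did not pass without the 48 h pair. It also passed with quantile normalization (0.0474), with median scaling (0.0417) and averaged over its probe sets (0.0305). Ogfr, which binds Met-enkephalin, differed by -0.17 ± 0.16. The neurotensin receptors Ntsr1 and Ntsr2 were at 1.2 to 21.2 in p53-Dnmt1-null cells and 1.0 to 20.9 in p53-null cells, below the filter. The opioid receptors Oprd1, Oprk1 and Oprm1 were also below it, at no more than 39.2 in p53-Dnmt1-null cells and 40.8 in p53-null cells.

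**Figure D3:**
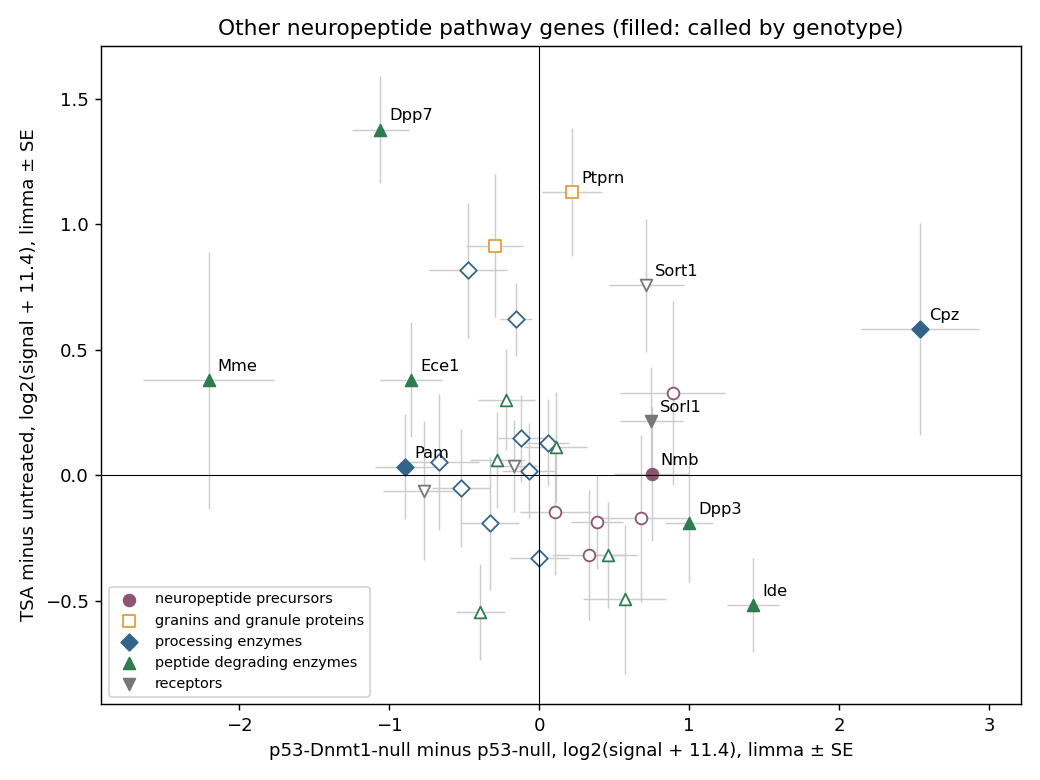
The 34 measured genes of the 5 pathway lists by limma's genotype difference (x) and TSA difference (y), on the log2(signal + 11.4) scale with SE bars; shapes and colours mark the list, and filled points passed the genotype test. Cpz lies at 2.54 and Mme at -2.20 on the x axis, and Dpp7 and Ptprn are highest on the y axis at 1.38 and 1.13.

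TSA was tested over the same 6 arrays with both times and both genotypes pooled. Limma called 0 of the 34 pathway genes, where 0.0319% of all features were called higher and none lower. At an unadjusted p under 0.05 there were 8 of the 34 and 1406 of the 9390. The median TSA difference was 0.04 over the 34 genes and 0.01 over all features. By the size rule 2 of the 34 were higher and 0 lower in p53-Dnmt1-null cells, where 1.87% of all features were higher and 0.341% lower. In p53-null cells 0 were higher and 1 lower, where 1.54% of all features were higher and 1.00% lower.

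The granule proteins Ptprn and Rab3d had the highest list median with TSA, 1.02 over these 2 measured genes of 15 with a probe set. Ptprn, a membrane protein of dense-core granules also called IA-2, read 126.6, 344.9 and 311.5 in p53-Dnmt1-null cells at 0, 24 and 48 h and 79.4 after removal, against 126.9, 344.1 and 193.0 in p53-null cells. Its TSA difference was 1.13 ± 0.25 (SE, limma adjusted p = 0.134), and it was higher than untreated on 4 of 4 TSA arrays. Rab3d, a GTPase of secretory granules, differed by 0.92 ± 0.28 (SE, limma adjusted p = 0.222). Neither was called by genotype, with a median genotype difference of -0.04.

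Dpp7 read 79.8, 258.2 and 284.8 in p53-Dnmt1-null cells and 72.6 after removal, against 228.4, 453.9 and 576.6 in p53-null cells, with a TSA difference of 1.38 ± 0.21 (SE, limma adjusted p = 0.0775). It passed without either pair of TSA arrays (limma adjusted p = 0.00339 without 24 h and 0.0400 without 48 h). Those fits have 1 residual degree of freedom and called 319 and 200 features, where the main fit called 3. A dim Dpp7 probe set read 21.4, 20.3 and 27.9 in p53-Dnmt1-null cells at 0, 24 and 48 h. In p53-null cells it read 20.3, 24.3 and 24.9. Another Dpp7 probe set was higher on all TSA arrays, like the main one. Thop1, a peptidase that cleaves neurotensin, read 230.3, 305.8 and 196.1 in p53-Dnmt1-null cells and 267.0, 113.6 and 127.8 in p53-null cells, and was the gene lower by the size rule in p53-null cells. Sort1 had a TSA difference of 0.76 ± 0.26 (SE, limma adjusted p = 0.252). The TSA medians were -0.16 for precursors, 0.05 for processing enzymes, 0.06 for degrading enzymes and 0.13 for receptors.

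After TSA removal 0 of the 34 genes were at least 2-fold higher than in untreated p53-Dnmt1-null cells and 4 were lower, Cort, Oxt, Cpz and Aopep. Over all features 9.68% were lower by that rule. Oxt, the oxytocin precursor, read 66.9 after removal against 230.3 untreated. The median of the 34 was -0.35, against -0.13 for all features, and these single arrays have no replicate check.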

How the data were processed

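RNA of 7 groups was measured with 1 array each. The deposited values are linear signal intensities, made by the authors with MAS5 per the submitters' processing notes, for 22690 probe sets. Their 2% trimmed means were 150.1 on every array, so the authors' scaling was kept. The sources used here give no version of MAS5. The number of arrays limits the precision.

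Probe sets were named through the platform annotation (20393 with 1 symbol, 691 with several, 1606 unlisted), and 20364 symbols were updated through a RefSeq table. Where a gene had several probe sets, the one of highest mean log2 signal stood for it, and 64 control probe sets were dropped. The offset of 11.4 is the pooled 25th percentile of signals. Other pathway genes were tested with limma 3.58.1 (R 4.3.3, prior variance following intensity). The additive models held genotype and time (2 residual degrees of freedom) or genotype and TSA (3). On simulated data with independent noise the genotype fit recovered 80.6% of 2-fold and 100% of 4-fold changes. The TSA fit recovered 59.2% and 96.4%. Of the calls, 3.94% were false in the genotype fit and 4.77% in the TSA fit.

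The members and lists were chosen with earlier results of these data known. From each list the text names called genes, at most the 4 largest per direction, the members' receptors, Pcsk1 and Pcsk2, and the 3 genes most alike to each member. Thop1, Ptprn, Rab3d, Ctsl, Calcb, Cort, Oxt, Aopep, Ogfrl1, Pomc and Qpctl, and the TSA values of Dpp7, were chosen after their values were seen.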

Additional observations from a re-analysis of the deposited data

Results flagged for a closer look

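Some TSA differences had opposite signs in the genotypes, at both 24 h and 48 h. The main probe set of Cpe was lower with TSA in p53-Dnmt1-null cells (mean -0.15) and higher in p53-null cells (0.51), a difference between responses of -0.65. Its dim probe set gave -0.13 and 0.82, a difference of -0.95. Scg5 gave -0.54 and 0.54, a difference of -1.08, but its signals are all below the pooled median and too dim to be ordered, so no direction is read from them. For these members the difference was not tested.

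Cpz was higher with TSA in p53-Dnmt1-null cells (1.22) and slightly lower in p53-null cells (-0.05), where its signal was at most 2.2, a difference of 1.27. Ogfr gave 0.22 and -0.15, a difference of 0.37. Neither passed limma's test of the difference over all 7 arrays (adjusted p = 0.994 for both). That limma test called 0 of 9390 features, with 291 at an unadjusted p under 0.05. Other listed genes also had opposite signs at both times, among them Ogfrl1, Pomc, Qpctl and Aopep. Ogfrl1 differed by -0.42 at 24 h and -0.37 at 48 h in p53-Dnmt1-null cells, and by 0.37 and 0.17 in p53-null cells. The share of all features with opposite signs was not counted.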

How the results depend on the processing

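Limma called 3643 features by genotype, and 2246 without the 48 h pair of arrays. With TSA it called 3 features, 1 with the offset at the pooled median, 0 without a filter and 0 without the intensity trend. Without the 24 h pair it called 319 and without the 48 h pair 200, in fits with 1 residual degree of freedom. A joint fit over all 7 arrays called 0 features for TSA within either genotype. Pathway calls by TSA were 0, and 2 without the 24 h pair (Ctsl and Dpp7) and 3 without the 48 h pair (Dpp7, Ptprn and Rab3d). Of the 9 pathway genotype calls, Cpz, Mme, Dpp3, Dpp7 and Ide passed under each alternative in which they were tested; Nmb (0.0841) and Sorl1 (0.0613) also lost theirs without a filter, and Sorl1 when averaged over probe sets (0.175), all limma adjusted p.

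With the offset at the median, Nts differed with TSA by 2.31 in p53-Dnmt1-null and 2.91 in p53-null cells, Pcsk1n by 0.98 and Qpct by 1.80 in p53-null cells, and Penk by -6.04 between genotypes. With an offset of 1 these were 3.82 for Nts in p53-Dnmt1-null cells, 3.00, 3.62 and -7.92. Quantile normalization gave 1.83 for Pcsk1n and 2.74 for Qpct, and median scaling 2.74 for Qpct. The direction of each held throughout, and Pcsk1n missed the size rule with the offset at the median. Of the members' other genotype and TSA differences under the alternatives, 49 moved by no more than their spread and 9 by more; the 26 values after removal come from 1 array each and have no spread to be set against. The genotype fit matches arrays by time. No paired analysis was possible by replicate number because each group has 1 array and the labels give no replicate numbers.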
